A study of Mus musculus with 18 samples.

Results

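Gene expression in the brain hemispheres of wild-type mice was compared between 27 and 18 weeks of age, an interval of 9 weeks in young adulthood. The comparison used 6 of the 18 arrays in the series, 3 from mice whose titles read 27 week wildtype and 3 from mice whose titles read 18 week wildtype, and the samples were chosen from these titles alone. All 6 mice were wild-type littermates from a colony of R6/1 mice, a line that models Huntington's disease through a transgene made from the start of human huntingtin, with a lengthened CAG repeat. The wild-type animals do not carry that transgene, no treatment is named in the labels, and the sources used here give no background strain. The other 12 arrays came from 3 wild-type mice of 22 weeks and from 9 transgenic R6/1 mice, of which 3 were titled 18 weeks, 2 were titled 22 weeks and 4 were titled 27 weeks. Total RNA of 1 hemisphere per mouse was labelled with biotin and hybridised to an Affymetrix whole-genome mouse array, on which each transcript is read by a set of short probes (a probe set). The labels describe the mice as sex-matched and give no date or batch and do not say which mice shared a litter, so a p-value here measures the spread between these mice and whatever else differed between their arrays.

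The mouse brain is mature by these ages. Neurogenesis persists in a few niches, myelin is still being added slowly in forebrain tracts, and the inflammatory and glial changes of old age are yet to come. A hemisphere mixes many regions, each with neurons that express their own receptors and peptides, together with oligodendrocytes, which wrap axons in myelin, astrocytes, microglia, vessels and meninges. In such bulk tissue fewer cells of a type and less RNA per cell cannot be told apart.

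The arrays carried the RNA of brain, with unequal content of some regions. Rbfox3, the nuclear antigen of mature neurons, had a mean signal of 1608 ± 110 (SD, n = 3) at 18 weeks and 1585 ± 69.1 (SD, n = 3) at 27 weeks, and Mbp, the basic protein of myelin, 6434 ± 111 and 5995 ± 386. Gabra6, which encodes a subunit of GABA receptors and marks granule cells of the cerebellum, read 10.9, 1444.7 and 935.6 in the 18-week mice and 1505.1, 1221.7 and 1570 in the 27-week mice. Pcp2, a Purkinje cell gene, read 18.6, 1279.1 and 1069.3 at 18 weeks and 1506.4, 1352.7 and 1452.6 at 27 weeks, so 18-week replicate 1 was near background for defining genes of both cerebellar cell types. Cdhr1, which marks output neurons of the olfactory bulb, was high in that mouse alone among the 6, with 291.4 against 28.7 to 63.2 in the others. The pituitary hormone genes Gh and Prl were highest in 18-week replicate 2, at 144 and 261.5. At each age 1 of the 3 arrays had the Xist signal of a female (495.3 at 18 weeks and 790.7 at 27 weeks, against 9.1 to 18.2 in the other 4), so the sexes were balanced. RNA integrity, read as the Gapdh signal of the 3′ probe set over that of the 5′ probe set, lay between 0.710 and 0.739 at 18 weeks and between 0.702 and 0.755 at 27 weeks. The same ratio for Actb was 1.40, 1.42 and 1.36 at 18 weeks and 1.43, 1.45 and 1.41 at 27 weeks, with the highest 18-week array above the lowest 27-week array, and its part in the results was not tested. Over all 18 arrays the first principal component held 19.3% of the variance. It set the 18-week array low in Gabra6, together with 2 wild-type arrays of 22 weeks, apart at 33.0 to 42.0. It also separated the genotypes, with the remaining wild-type arrays at -0.82 to 15.2 and the transgenic arrays at -24.8 to -9.2.

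Differences between the ages were small, and almost none passed the test. Of 27022 probe sets measured above a weak-signal filter, 1 was higher at 27 weeks (0.0037%) and 0 were lower (0%) at a Benjamini-Hochberg adjusted p under 0.05 in limma, a linear model that shares the spread of all 6 groups. At an unadjusted p under 0.05 the same fit counted 1017 higher and 989 lower probe sets, 7.42% of those tested. The data were also read by gene, taking for each of 12582 genes its brightest probe set. Here 0 genes (0%) passed in either direction, while 474 higher and 504 lower genes had an unadjusted p under 0.05, 7.77% of the genes. The median log2 difference over genes, 27 minus 18 weeks, was -0.0053 and the median of its absolute size was 0.11, on the scale of log2(signal + 5.4), which understates differences of weak probe sets.

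The intervals say how much change the 3 mice per age could have hidden. The 95% interval of the difference lay entirely within 1.5-fold in both directions for 9322 genes (74.1%) and within 2-fold for 11906 genes (94.6%). For 4 genes the interval lay wholly beyond 1.5-fold. The signals of the 3 mice of each age did not overlap for 893 genes that were higher (7.1%) and 989 genes that were lower (7.86%) at 27 weeks. Without the wild-type arrays low in Gabra6, 0 probe sets and 0 genes passed in limma, the smallest adjusted p was 0.347, and 1343 probe sets and 618 genes had an unadjusted p under 0.05.

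**Figure D1:**
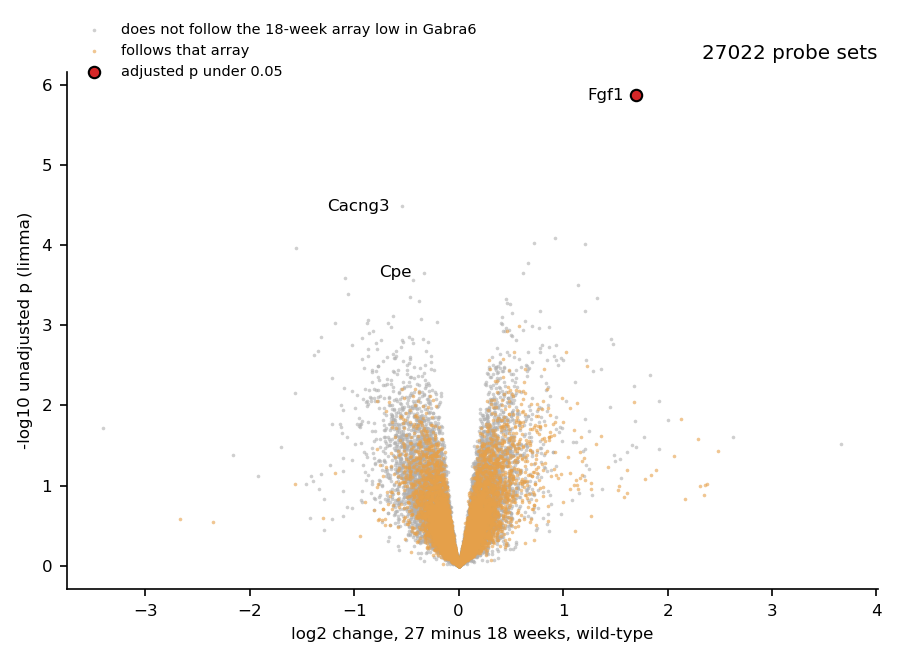
Each point is 1 of 27022 probe sets; the x axis is the log2 difference in wild-type mice, 27 minus 18 weeks, and the y axis is -log10 of the unadjusted limma p. Orange points follow the 18-week array low in Gabra6. Points lie on both sides of 0, and the only probe set past an adjusted p of 0.05 is 1 for Fgf1, at a log2 difference of 1.70.

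The probe set that passed belongs to Fgf1, acidic fibroblast growth factor, which neurons express and which acts on all FGF receptors. It was named after its value was seen, because the gene is represented elsewhere by a brighter probe set. Its signals were 2.9, 4.6 and 3.3 at 18 weeks and 31.8, 24 and 17.2 at 27 weeks. Both the 22-week mice, at 22.7, 19.9 and 29.6, and the transgenic mice of 18 weeks, at 39.5, 33.5 and 26.1, were at the level of the 27-week wild-type mice. The 18-week wild-type arrays were therefore the group that stood apart, and their 3 signals were below 5.4, the 20th percentile of all signals in the table. The mean signal was 3.6 ± 0.889 (SD, n = 3) at 18 weeks and 24.3 ± 7.31 (SD, n = 3) at 27 weeks, a log2 difference of 1.70 ± 0.24 (SE) with a limma adjusted p of 0.036. Since the 18-week signals were below the offset of 5.4 added before the logarithm, the offset sets the size of this difference, which was 2.44 with an offset of 1 and 0.90 with an offset of 20, and no fold is given. Without the arrays low in Gabra6 the log2 difference was 1.64, with an adjusted p of 0.347.

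The brighter Fgf1 probe sets did not pass. The brightest read 421, 497.1 and 431.6 at 18 weeks and 463.5, 522.3 and 533.9 at 27 weeks, a log2 difference of 0.17 (limma adjusted p = 0.746). Another read 131.1, 188.5 and 145 at 18 weeks and 192.2, 158.6 and 195.5 at 27 weeks, a log2 difference of 0.24 (limma adjusted p = 0.721). Both means were higher at 27 weeks, by far less than in the weak probe set, and the mice of both ages overlapped. Both of these probe sets followed the 18-week array low in Gabra6, and they differed by 0.12 and 0.13 without the low arrays. In transgenic mice the weak probe set changed by -0.12, and the difference between the genotypes in the age change did not pass (limma adjusted p = 0.38).

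Beyond that probe set, 20 genes were chosen for description, the 10 higher and the 10 lower genes with the smallest unadjusted p among those whose mice did not overlap and that did not follow the array low in Gabra6. None of the 20 passed the threshold in limma, with adjusted p from 0.437 to 0.646. With the offset added to the signals, the higher genes differed by 1.33-fold to 2.50-fold and the lower genes by 1.15-fold to 2.13-fold. These folds understate the ratio of the signals themselves for weak genes. The highest in each direction belonged to such genes, Nek2 (mean signals 9.53 at 18 weeks and 33.6 at 27 weeks) and Gapdhs (18.4 and 5.77).

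The gene with the smallest p was Cacng3, which encodes an auxiliary subunit of AMPA-type glutamate receptors. Its signals were 361.4, 345.6 and 318.1 at 18 weeks, then 303.1, 285.8 and 318.1 at 22 weeks, and finally 242, 224.9 and 230.7 at 27 weeks. Every 27-week mouse was below every younger wild-type mouse, and the lowest 18-week mouse equalled the highest 22-week mouse. The mean signal went from 342 ± 21.9 (SD, n = 3) to 233 ± 8.7 (SD, n = 3), a log2 difference of -0.54 ± 0.10 (SE; 95% interval -0.75 to -0.34) with a limma adjusted p of 0.437. Transgenic mice had lower signals and the opposite order, with 137, 132.9 and 161.3 at 18 weeks and 163.6, 176.4, 203.5 and 161 at 27 weeks, a log2 difference of 0.28. The difference between the genotypes in the age change was -0.83 ± 0.13 (SE) for Cacng3, the smallest p of that test, with a limma adjusted p of 0.252.

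Cpe and Hyou1 serve secretion and protein folding. Cpe, the carboxypeptidase that trims prohormones and neuropeptide precursors, read 5367, 5564 and 5704 at 18 weeks and 4811.5, 4360.9 and 4083.8 at 27 weeks, a log2 difference of -0.33. Hyou1, a chaperone of the endoplasmic reticulum, read 370.7, 340.2 and 355.1 at 18 weeks, then 314.8, 309.6 and 308.9 at 22 weeks, and finally 271.4, 271.2 and 282.3 at 27 weeks. The 3 ages of Hyou1 were thus fully ordered mouse by mouse, with a log2 difference of -0.36 ± 0.09 (SE) between the ends. The same probe set differed by -0.37 ± 0.08 (SE) in transgenic mice. The other probe sets for Hyou1 differed by -0.76 and -0.12 in wild-type mice and by 0.20 and -0.25 in transgenic mice.

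The remaining lower genes were of mixed function. Rbfa, a factor for maturation of the mitochondrial small ribosomal subunit, read 166.9, 175.3 and 168.5 at 18 weeks against 129.2, 124 and 119 at 27 weeks. Mrpl57, a mitochondrial ribosomal protein gene, read 405.6, 446.6 and 384.6 against 297.6, 350.2 and 302.4, although its other probe set was higher at 27 weeks by 0.12. Selenow, which encodes a small selenoprotein abundant in brain and muscle, read 3799.1, 3680.1 and 3900 against 3211.5, 3344.5 and 3318. These 3 genes differed by -0.44, -0.38 and -0.20 on the log2 scale. Necab1, a neuronal calcium-binding protein gene, read 289.6, 222 and 203.3 at 18 weeks and 175, 141.7 and 123.6 at 27 weeks, while its other probe set was higher at 27 weeks by 0.09. Wtip, a LIM domain protein gene, read 45.9, 47.2 and 46.7 against 34.9, 24.1 and 26.7. The last 2 were weak: Gapdhs, the sperm form of glyceraldehyde-3-phosphate dehydrogenase, had means of 18.4 ± 3.4 and 5.77 ± 1.87 (SD, n = 3 each), and 1700020G03Rik, an uncharacterised gene, 24 ± 4.41 and 10.9 ± 3.39 (SD, n = 3 each).

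Among the higher genes, Maob and Fgf9 act in signalling between brain cells. Maob, monoamine oxidase B, breaks down dopamine and other amines and is expressed mainly by astrocytes and serotonergic neurons. It read 143, 162.4 and 187.6 at 18 weeks, then 205.6, 199.9 and 180.7 at 22 weeks, and finally 223, 214.6 and 244.4 at 27 weeks, a log2 difference of 0.46 or 1.38-fold between the ends. Fgf9, a secreted growth factor made by neurons, read 61.4, 82.6 and 66.4 at 18 weeks, then 117.2, 92.1 and 89.2 at 22 weeks, and finally 113.8, 118.6 and 116.7 at 27 weeks. The 18-week mice were below all the older wild-type mice for Fgf9, with a log2 difference of 0.70 ± 0.18 (SE) between the ends. Its other probe set had 0.42, but was set apart, with 0.23 without the low arrays. In transgenic mice the difference of the brighter probe set was -0.24.

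The other higher genes were of mixed function. Slc8b1, the sodium-calcium exchanger of the mitochondrial inner membrane, read 32.3, 34.8 and 37 at 18 weeks, then 41.1, 41.5 and 42.8 at 22 weeks, and finally 49.1, 50.3 and 51.7 at 27 weeks. It was ordered by age in all 9 wild-type mice, as were the zinc finger genes Zfp740 (126 ± 7.15 and 170 ± 15.1 at the ends, SD, n = 3 each) and Zfp64 (58.2 ± 5.62 and 79.4 ± 6.42), although the other Zfp64 probe set was lower at 27 weeks by -0.21. Tecpr1, which takes part in the fusion of autophagosomes with lysosomes, had means of 209 ± 24.3 and 295 ± 21.4 (SD, n = 3 each), and its other probe set differed by 0.06. Ift80, a component of the transport particles of cilia, had 75.8 ± 7.34 and 102 ± 3.03, Sap30, a subunit of a histone deacetylase complex, 93 ± 6.92 and 130 ± 19.4, and Mpp7, a scaffold of cell junctions, 55 ± 10.2 and 87 ± 14.7, although the other probe sets for Mpp7 had a median difference of -0.05. Nek2, a kinase of the mitotic centrosome, had the highest fold of the 20 and weak signals, 7.1, 9.5 and 12 at 18 weeks and 51.9, 25.9 and 23 at 27 weeks. Its 22-week signals of 41.6, 31.6 and 33.6 overlapped those of 27 weeks.

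**Figure D2:**
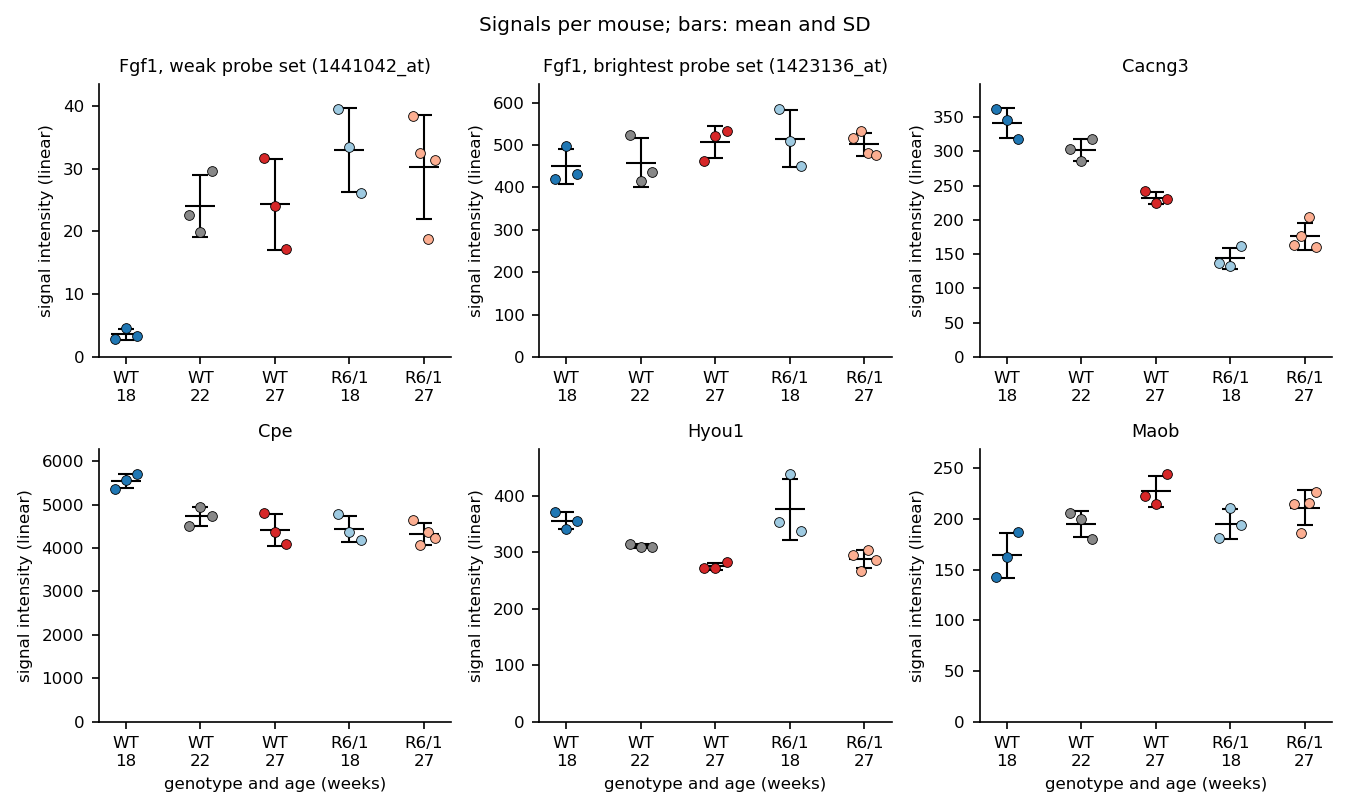
Signals of individual mice for 6 probe sets (linear scale from 0), by genotype and age in weeks; each point is 1 mouse and the bars give the mean and SD. The 27-week wild-type mice lie below every younger wild-type mouse for Cacng3 (224.9 to 242) and Hyou1 (271.2 to 282.3).

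The 3 wild-type mice of 22 weeks were not used to choose these genes, although they shared in the estimate of spread. Their Gabra6 signals were 1162.5, 9.9 and 0.6, so 2 of them lacked the cerebellar signal. The part of this tissue content in the order of the ages was not tested. The 22-week mean lay between the means of 18 and 27 weeks for 18 of the 20, all except Nek2 and Gapdhs. Among all 1457 genes without overlap that were not set apart, from which the 20 were taken, it was 926 (63.6%), and among all 12582 genes 34.9%; genes chosen for a gap between the ends leave room for a mean in between. All 3 mice of 22 weeks lay between the mice of both ages for 5 of the 20: Zfp740, Zfp64, Slc8b1, Hyou1 and 1700020G03Rik. That held for 22 of the 1457 genes (1.51%). The 20 had the smallest p among these, which favours wide gaps, so their share and that of the 1457 are not directly comparable. Transgenic mice were other animals of the same 2 ages. Their difference had the same sign for 16 of the 20 genes, 8 of 10 higher and 8 of 10 lower. For 5 of those 16 it had an unadjusted p under 0.05 in limma. Cacng3, with the opposite sign, also had one (limma unadjusted p = 0.0067). Such a p in transgenic mice was found for 802 of all 12582 genes, in either direction. Over all 978 wild-type genes with an unadjusted p under 0.05, 680 (69.5%) had the same sign in transgenic mice, against 57.6% of all genes. In the transgenic mice 0 probe sets passed between 27 and 18 weeks in limma, 1705 had an unadjusted p under 0.05, and the smallest adjusted p was 0.403.

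The age change of the 2 genotypes was also compared directly. Of the 27022 probe sets, 0 passed in the limma test of the difference (0%), with 1086 at an unadjusted p under 0.05. After Cacng3 the smallest p among genes belonged to Zmynd11, a reader of histone marks, Fmod, the collagen-binding proteoglycan fibromodulin, Onecut2, a homeodomain transcription factor, and the gene model Gm10037. Fmod read 108.4, 138.4 and 121.4 in wild-type mice of 18 weeks and 86.9, 101.5 and 74.2 in those of 27 weeks. In transgenic mice it read 138.8, 150.3 and 121.8 at 18 weeks and 176.2, 178.6, 178.6 and 172 at 27 weeks, so the log2 differences were -0.47 and 0.36. For Zmynd11 they were -0.17 and 0.41, for Onecut2 -0.30 and 0.61, and for Gm10037 -0.76 and 0.59. All 4 had opposite signs on these probe sets, and none passed the threshold. The Zmynd11 probe set followed the array low in Gabra6. The gene's other probe sets had the same sign in both genotypes, at 0.06 and 0.02, 0.10 and 0.22, and 0.19 and 0.22. Those for Onecut2 had -0.38 and 0.28, and 0.16 and 0.49. The other Fmod probe sets had opposite signs, except that with -0.32 and -0.02.

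A large share of the genes followed the 18-week array that lacked the cerebellar signal. A gene was set apart when its level on that array lay outside the range of the other 5 arrays and farther from the mean of the other 2 mice of 18 weeks than the 27-week mean did. The rule took 4518 of the 12582 genes (35.9%), of which that array was higher for 2203 and lower for 2315. The same rule, applied to the other 2 arrays of 18 weeks after the data were seen, took 2902 (23.1%) and 3123 (24.8%), so the rule alone takes a sizeable share of genes for any array. Deviations of more than 1 log2 unit were fewer, 171 genes for the array low in Gabra6 against 94 and 78. The 2 wild-type arrays of 22 weeks with little Gabra6 are other mice. They deviated to the same side from their remaining 22-week array for 3008 of the 4518 genes (66.6%), against 53.6% of the genes not set apart. For the 171 genes deviating by over 1 log2 unit it was 129, and for the 30 deviating by over 2 log2 units it was 24.

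**Figure D3:**
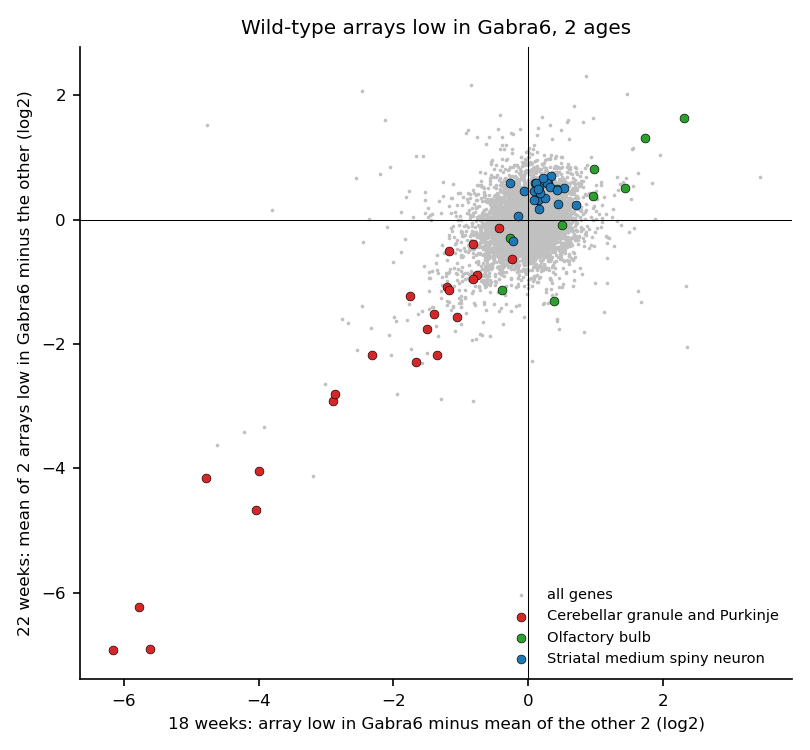
Each point is 1 gene; the x axis is the log2 level of the 18-week wild-type array low in Gabra6 minus the mean of the other 2, and the y axis the mean of the 2 low 22-week wild-type arrays minus the remaining one. Red, green and blue points are the cerebellar, olfactory bulb and striatal lists; cerebellar genes form the tail at the lower left, low on the arrays of both ages, while most genes lie near the origin.

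The cerebellar genes were wholly in that category. All 23 measured members of a list of granule and Purkinje cell genes were set apart, 22 had a positive difference between 27 and 18 weeks, and their median log2 difference of 0.87 became 0.20 without the arrays low in Gabra6. Cbln3, a secreted partner of cerebellins in granule cells, read 8.8, 899.1 and 657.5 at 18 weeks and 981.4, 1031.7 and 1118.7 at 27 weeks. Zic1, a transcription factor of the granule lineage, read 580.5, 1143 and 1285 against 1891.7, 1762.9 and 1577.6, Cdh15 22.3, 40.7 and 46.1 against 44, 61.3 and 56.5, and Slc1a6, the glutamate transporter of Purkinje cells, 33, 99.2 and 87.1 against 137.5, 140.9 and 169.7. For Cbln3 as for the last 3 genes, the mean of the 18-week mice with cerebellar signal was also below the 27-week mean. The difference without the low arrays was 0.52, 0.27 and 0.65 on the log2 scale for the last 3.

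Genes outside the cerebellar list were also set apart. Those with the smallest p and a higher 27-week mean were Dusp16, a phosphatase of MAP kinases, Cerk, which makes ceramide-1-phosphate, Ubxn2a, Acrbp and Tbc1d4, a regulator of glucose transporter traffic. Cerk read 151.8, 250.4 and 219.4 at 18 weeks and 268.4, 288.3 and 336 at 27 weeks, and its log2 difference of 0.53 became 0.33 without the low arrays. Those with a lower mean were Plppr4, a lipid phosphate phosphatase-related protein of excitatory synapses, Sh3bgrl3, Npy5r, a receptor for neuropeptide Y, Kcnv1, a modifier subunit of potassium channels, and Vxn. For Plppr4 the signals were 1313.3, 957.8 and 1012.3 at 18 weeks and 769.5, 977.5 and 710.3 at 27 weeks, and -0.41 became -0.28. Of the 978 genes with an unadjusted p under 0.05, 273 were set apart and 705 were not, and 492 of the 705 (69.8%) had the same sign in transgenic mice.

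Cell types, regions and pathways were then read through 33 gene lists, which held 729 genes, of which 591 were measured. Not 1 list member passed in limma (smallest adjusted p = 0.646). Of the 591, 82 had an unadjusted p under 0.05, against 7.77% of all genes. The mice of the 2 ages did not overlap for 124 of the 591 (21%), against 15% of all genes. The set-apart rule took 254 of the 591, against 35.9% of all genes. The 95% interval lay within 2-fold for 516 of the 591, against 94.6% of all genes. The median log2 difference was within 0.25 of 0 for 28 lists, and for 30 without the arrays low in Gabra6. In each list the genes described below are the members with the smallest unadjusted p, and those set apart are said to be so. A few defining genes of a list, such as Mbp, Gfap and Fos, were added after their values were seen.

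**Figure D4:**
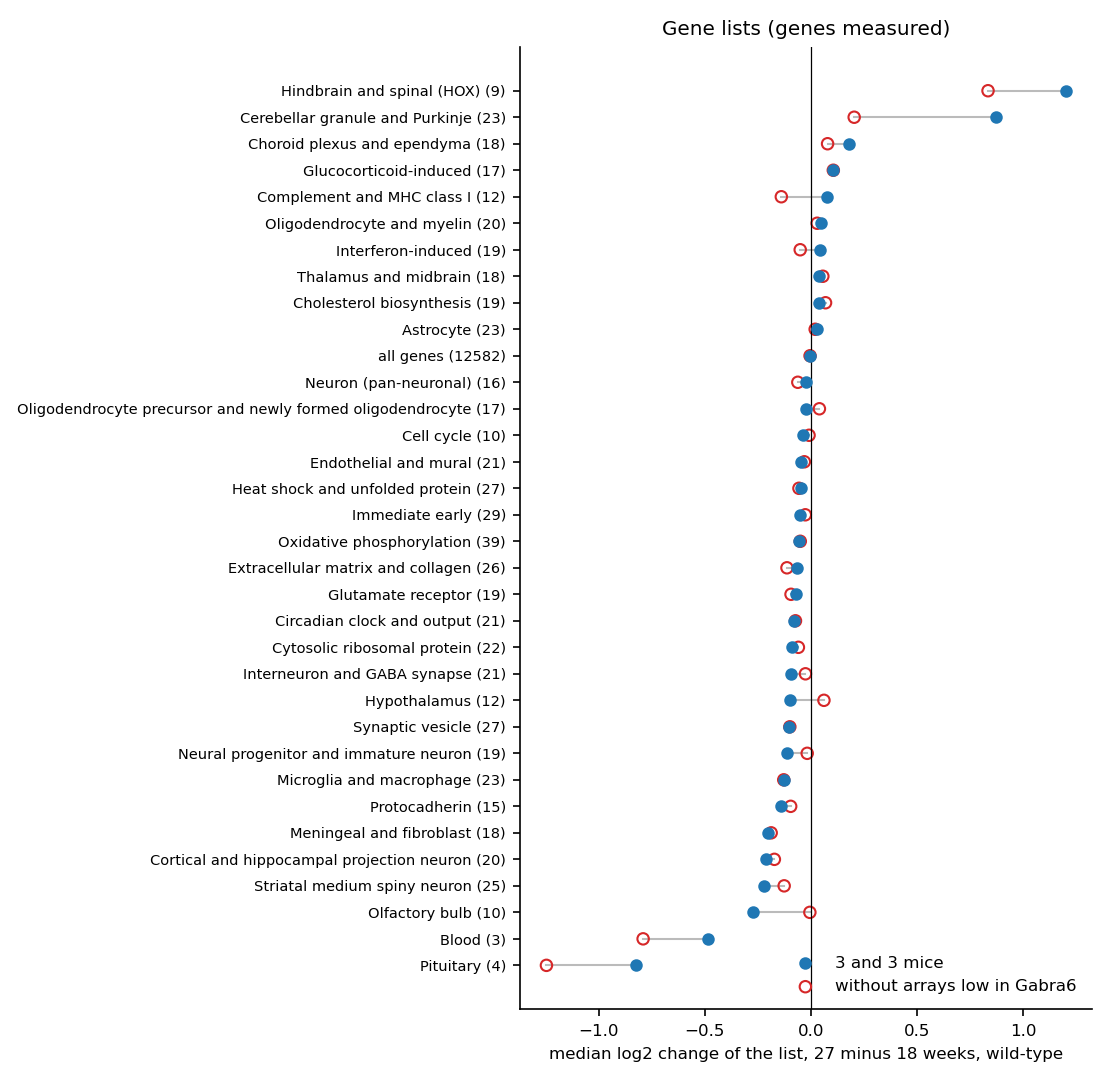
Median log2 difference, 27 minus 18 weeks in wild-type mice, for each gene list with the number of genes measured in brackets, with all arrays and without the wild-type arrays low in Gabra6. Most medians lie close to 0. Without the low arrays the hindbrain and spinal list goes from 1.20 to 0.83 and the cerebellar list from 0.87 to 0.20.

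The hindbrain and spinal list had the highest median of the 33, both with all arrays and without the low ones. It holds homeobox genes of the HOX clusters, which stay active in the adult medulla and spinal cord and are silent in the forebrain, and other genes of the caudal brain. Of its 9 measured members, 7 had a positive difference and 5 were higher without overlap of the mice, as were 7.1% of all genes. The median log2 difference was 1.20 with all arrays and 0.83 without the low ones. Hoxc4 read 1.3, 18.7 and 3 at 18 weeks and 28.2, 27.3 and 35.6 at 27 weeks. Hoxb5 read 1.7, 19.8 and 0.8 at 18 weeks and 27.5, 22.5 and 43 at 27 weeks. Tph2, the enzyme that starts serotonin synthesis in the raphe nuclei of the brainstem, read 5.4, 16.1 and 17.1 against 48.9, 41.1 and 37.3, a log2 difference of 1.46, or 1.11 without the low arrays. All 3 genes were weak and were lower in every 18-week mouse than in every 27-week mouse. The interval bounds were 0.36 to 3.01 for Hoxc4, 0.25 to 3.29 for Hoxb5 and 0.64 to 2.27 for Tph2. Hoxc4 and Hoxb5 each had 18-week signals below the offset of 5.4, so the offset in part sets the size of their differences. At 22 weeks Tph2 read 39.7, 7.8 and 21.7, and Hoxb5 40.1, 0.7 and 0.6, the first of each triplet being the array with cerebellar signal. In transgenic mice the list's median was 0.31.

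The thalamus and midbrain list had a median of 0.04, with 11 of 18 measured members positive and 7 negative. The mice did not overlap for 6 members, 5 higher and 1 lower at 27 weeks, against 7.1% higher and 7.86% lower over all genes. Ddc, the decarboxylase that makes dopamine and serotonin, read 106.5, 95.3 and 114.9 at 18 weeks and 153.7, 146.4 and 167.1 at 27 weeks, and Slc18a2, the vesicular transporter for both amines, 54.3, 49.6 and 49 against 75.7, 70.6 and 74.8. Their log2 differences were 0.54 and 0.49, and 0.55 and 0.53 without the low arrays. Slc17a6, the glutamate transporter of thalamic and brainstem neurons, read 470.7, 518.5 and 550.7 against 621.2, 572.2 and 641.2. The mice did not overlap for any of these 3 genes. Slc6a3 and Th, the transporter and the synthetic enzyme of dopamine neurons, had log2 differences of -0.43 and -0.32, Th being set apart; both were named after their values were seen. The mean level of the hindbrain and spinal list, which holds neither Ddc nor Slc18a2, was 0.58, 0.35 and 0.71 in the 27-week mice and -0.83, 0.11 and -0.32 in the 18-week mice, relative to all 18 arrays on the log2 scale, and the part of tissue content in the signals of these genes was not tested.

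Forebrain neuron lists had negative medians. The list for medium spiny neurons, which project out of the striatum, had 25 measured genes, of which 23 had a negative difference. The mice did not overlap for 8 of the 25, 7 lower and 1 higher at 27 weeks. Over all genes the shares were 7.86% lower and 7.1% higher. The list's median was -0.22 with all arrays and -0.13 without the low ones. Arpp21, a phosphoprotein regulated by dopamine, read 2021.6, 1688.2 and 2056.6 at 18 weeks and 1599, 1315.9 and 959.5 at 27 weeks, a log2 difference of -0.60. Penk, the precursor of enkephalins, read 1061.5, 973.8 and 946.7 against 797, 857.5 and 825, a difference of -0.26. Drd1, the D1 dopamine receptor, was set apart and read 244.7, 161.4 and 173.5 against 105.8, 139.6 and 147.8. All 25 intervals lay within 2-fold. The mean level of the list on each array was 0.54, 0.35 and 0.36 at 18 weeks and 0.19, 0.35 and 0.15 at 27 weeks, relative to all 18 arrays on the log2 scale, with the highest value in the mouse without cerebellar signal and 1 mouse of 27 weeks at the level of the others of 18 weeks. In transgenic mice the median of the list was -0.06.

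Cortical and hippocampal projection neuron genes had a median of -0.21, or -0.17 without the low arrays, with 17 of 20 measured members negative. Of the 20, 4 were lower without overlap, against 7.86% of all genes. Camk2a, the calcium-dependent kinase of excitatory synapses, read 2246.3, 1850 and 1580.5 at 18 weeks and 1283.6, 1339 and 1227.3 at 27 weeks, a log2 difference of -0.54, while its other probe sets had a median of -0.14. Lmo4, a cofactor of cortical transcription factors, was set apart and read 881.2, 790.6 and 778.8 against 714.8, 742.1 and 677. Bcl6, a repressor in cortical neurons, went the other way with 121.6, 156.3 and 128.3 against 220.4, 169.8 and 170.6, a difference of 0.45. For the forebrain lists too the 18-week mice differed in cerebellar and hindbrain content, and its part in the medians was not tested.

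**Figure D5:**
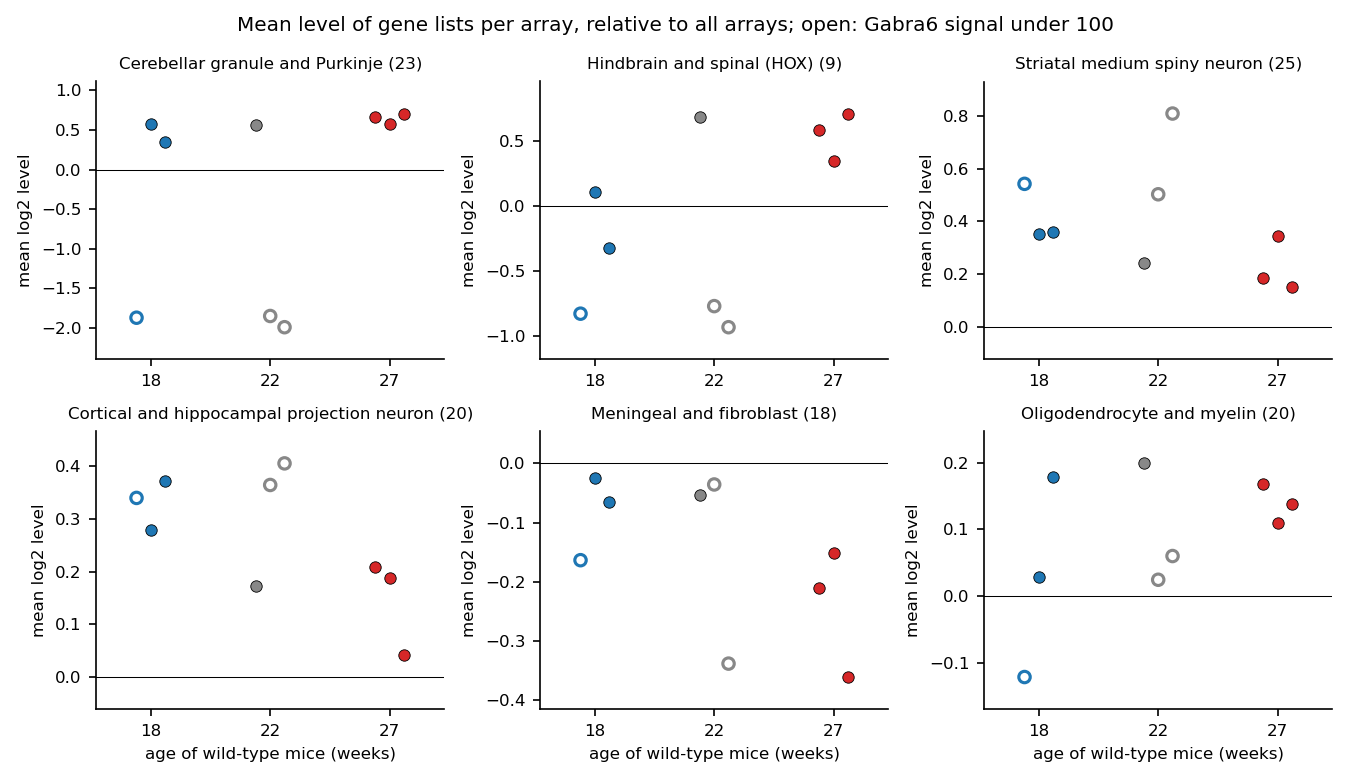
Mean log2 level of 6 gene lists on each wild-type array, relative to the mean of all 18 arrays, by age in weeks; open points are arrays with a Gabra6 signal under 100. The HOX list is at 0.35 to 0.71 in the 27-week mice and at -0.83 to 0.11 in the 18-week mice, and the striatal list at 0.15 to 0.35 and 0.35 to 0.54.

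General neuronal and synaptic genes differed little. The 16 pan-neuronal genes had a median of -0.02, and 15 had intervals within 1.5-fold. Syt1, the calcium sensor of transmitter release, read 4141.5, 3937.8 and 3920.7 at 18 weeks and 3340.3, 3648.7 and 3509.6 at 27 weeks, a log2 difference of -0.19, with -0.19 also as the median of its other probe sets. Uchl1, an abundant neuronal deubiquitinase, read 2044.5, 1914.7 and 1862.4 against 1545.3, 1799.9 and 1506.8. Nefh, the heavy neurofilament of large axons, was higher at 27 weeks by 0.64 but was set apart. The 27 synaptic vesicle genes had a median of -0.10, with 19 negative, and after Syt1 its leading genes by p, Syt2 and Unc13c, were higher at 27 weeks by 0.74 and 0.35, and both were set apart.

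Receptor lists had medians near 0. Of 19 measured glutamate receptor genes 12 were negative with a median of -0.07. Grm5, a metabotropic receptor, differed by -0.35 and Gria2, an AMPA receptor subunit, by -0.20, both set apart, and Grik3, a kainate receptor subunit, differed by -0.36 with signals of 154.2, 132.6 and 146.5 against 134, 120.3 and 85.7. The 21 interneuron and GABA synapse genes had a median of -0.10, which was -0.03 without the low arrays. Gabra4, a GABA receptor subunit of the forebrain, read 642.2, 580 and 552.7 at 18 weeks and 526.9, 540.2 and 378.9 at 27 weeks. Cck and Gabra3 differed by -0.47 and -0.25 and were set apart. Protocadherin genes, whose products label neurons at their surface, had 11 of 15 negative and a median of -0.14. Pcdh20 read 189, 162.9 and 174.6 against 109.8, 128 and 141.3, and Pcdh10 and Pcdh7 differed by -0.34 and -0.37.

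Myelin genes had a median difference of 0.05 over 20 measured members, 11 positive and 9 negative. Hapln2, a link protein of the nodes of Ranvier in large axons, read 70.1, 69.1 and 77.4 at 18 weeks, then 100.4, 88.2 and 72.8 at 22 weeks, and finally 105.4, 99.2 and 97.8 at 27 weeks, a log2 difference of 0.45, with 0.35 as the median of its other probe sets. Mag, an adhesion protein of myelin, differed by 0.31 and Gjb1, the connexin of myelin, by 0.47, and both were set apart. Abundant myelin genes had narrow intervals around 0: Mbp differed by -0.10 (95% interval -0.30 to 0.10) and Cnp by -0.04 (-0.28 to 0.20). Genes of oligodendrocyte precursors and newly formed oligodendrocytes had a median of -0.02 over 17 members. Ednrb, the endothelin B receptor, differed by 0.22, Sox4, a transcription factor of immature cells, by -0.28 and Bcas1, a marker of young oligodendrocytes, by 0.14, the last 2 set apart.

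Some genes of immature neurons had lower means. The list of progenitor and immature neuron genes had a median of -0.11 over 19 members, 13 negative, and of -0.02 without the low arrays. Mex3a, an RNA-binding protein of stem and progenitor cells, read 46.6, 29.2 and 63.2 at 18 weeks and 14.5, 21 and 36.3 at 27 weeks, a log2 difference of -0.83, with overlap between the ages, and its other probe sets had a median of -0.21. Dlx5, a homeodomain factor of interneuron precursors, read 74, 63.7 and 46.2 against 31.5, 43.1 and 30.3, a difference of -0.72 without overlap. Dcx, the doublecortin of migrating neurons, read 189.6, 120.8 and 97.1 against 83, 118.5 and 79.7 and was set apart, with its highest signal in the mouse that was high in Cdhr1. Only 10 of 25 cell cycle genes were measured, and their median was -0.04. Ccnd1, cyclin D1, read 138.8, 130.5 and 140.2 against 109.1, 126.8 and 123.5.

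Astrocyte genes had a median of 0.03 over 23 members, with 20 intervals within 1.5-fold. Aqp4, the water channel of astrocyte endfeet, read 755.7, 675.1 and 867.9 at 18 weeks and 1028.4, 868.1 and 1042.6 at 27 weeks, a difference of 0.36. Aldh1l1 differed by 0.22 and Clu by -0.20, both set apart. Gfap, a filament protein known to increase in reactive astrocytes, read 237.9, 94.4 and 275.1 at 18 weeks and 291.3, 284.1 and 163.7 at 27 weeks, with overlap and an interval of -0.59 to 1.32, which leaves its change undetermined at this number of mice.

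No immune gene passed the threshold. Of 23 measured genes of microglia and macrophages 14 were negative, with a median of -0.13 with and without the low arrays, against 0.10 in transgenic mice. Cd74, the invariant chain of MHC class II, read 49.3, 52.2 and 82.2 at 18 weeks and 40.4, 38.3 and 35.3 at 27 weeks, a log2 difference of -0.59 without overlap. Cd53, a tetraspanin of leukocytes, read 84, 72.3 and 75.5 against 60, 63.5 and 65.8, and Cx3cr1, the fractalkine receptor of microglia, 98.8, 106 and 108.2 against 88.2, 96.8 and 88.2. Tmem119, a marker of resident microglia, differed by -0.04 with an interval of -0.34 to 0.26, and C1qa, a complement component made by microglia, by -0.13. Complement and MHC class I genes had a median of 0.08, or -0.14 without the low arrays, over 12 members, with Psmb9, Tapbp and Serping1 at -0.39, 0.15 and 0.17, the last 2 set apart. Interferon-induced genes had a median of 0.04 over 19 members, or -0.05 without the low arrays. Gbp3, a guanylate-binding protein, read 16.2, 21 and 17 against 22.2, 45.7 and 33.6, a difference of 0.70, and Ifi27 and Irf7 differed by 0.23 and 0.39, the latter set apart.

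Meningeal and fibroblast genes had a median of -0.20 over 18 members, 14 of them negative, or -0.19 without the low arrays. Ptgds, the prostaglandin D synthase abundant in meninges and choroid plexus, read 5111.5, 5677.5 and 5366.6 at 18 weeks and 4670.1, 4421.7 and 4280.3 at 27 weeks, a log2 difference of -0.27 without overlap. Fmod, described above, and Islr were the other leading members, and Islr read 121.4, 121.2 and 88.6 against 78.5, 89.3 and 80.7. In transgenic mice the list's median was 0.008, and how much meninges each hemisphere carried was not tested. Extracellular matrix genes had 20 of 26 negative and a median of -0.07. Of the 26, 7 were lower without overlap, against 7.86% of all genes. Col6a2, a collagen VI chain, read 56.5, 90 and 76.4 against 42.5, 53.4 and 47.3. Ncan, a proteoglycan of perineuronal matrix, differed by -0.51 and Col18a1 by 0.78, both set apart.

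Vessel and ventricle genes showed no common direction. The 21 endothelial and mural genes had a median of -0.05. Tagln, a smooth muscle protein, read 47.2, 41.7 and 46.5 at 18 weeks and 20.8, 33.7 and 28.1 at 27 weeks, a difference of -0.64, and Acta2, smooth muscle actin, differed by -0.29. Cldn5, the claudin of endothelial tight junctions, differed by 0.49 and was set apart. The 18 choroid plexus and ependymal genes had a median of 0.18, or 0.08 without the low arrays, while Ttr, the main choroid plexus transcript, read 6727.7, 7037.7 and 7598.8 against 6912, 6332.2 and 7432. Folr1, Clic6 and Slc4a5 differed by 0.65, 0.30 and 0.65, the first 2 set apart.

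Genes of energy metabolism and protein synthesis had narrow intervals. All 39 measured genes of oxidative phosphorylation had intervals within 1.5-fold, and 31 were negative with a median of -0.06. Cox8a, a subunit of cytochrome c oxidase, read 2167.7, 2268.2 and 2185.2 at 18 weeks and 1981.7, 2053.3 and 1932.8 at 27 weeks, a log2 difference of -0.15, and Ndufb9 and Cox5a differed by -0.14 and -0.17. Cytosolic ribosomal protein genes had a median of -0.09 over 22 members, which became 0.0052 after quantile normalisation. Rps14 read 4700.5, 4575.4 and 4610.4 against 4133.7, 3770.1 and 4248.8, whereas the weak probe sets for Rps6 and Rpl14 differed by 0.83 and 0.74, the latter set apart. Many ribosomal protein genes have processed copies in the genome that a probe set may also read. In transgenic mice the medians of these 2 lists were 0.07 and 0.07.

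Among stress genes, 18 of 27 measured heat shock and unfolded protein genes were negative with a median of -0.05, and all 27 intervals lay within 2-fold. Besides Hyou1, the cytosolic chaperone gene Hsp90aa1 read 3580.5, 3378.1 and 3697.4 at 18 weeks and 3254.7, 2773.9 and 3004.4 at 27 weeks, a difference of -0.24. Hspa1a, the inducible form of HSP70, read 111.1, 94.4 and 120.2 against 85.3, 68.4 and 86.5, a difference of -0.42. Both were lower in every 27-week mouse. Cholesterol synthesis genes had 13 of 19 positive and a median of 0.04. Pmvk, a kinase of the mevalonate pathway, read 125.7, 127.5 and 127.6 against 152.2, 160.2 and 152.8, a difference of 0.28, and Sc5d and Cyp51 differed by 0.33 and 0.24.

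Genes that follow activity, time of day or hormones can differ between mice for reasons of the moment of sampling, which the labels do not give. The 29 immediate early genes had a median of -0.05. Egr3 read 780, 631.9 and 722.3 at 18 weeks and 645, 473.9 and 545.6 at 27 weeks, with overlap, and Fos read 473.3, 686.1 and 352.5 against 607.9, 635.5 and 668.5. Gadd45g and Homer1 differed by 0.27 and -0.26. Clock genes had a median of -0.08 over 21 members, whose sign turned without 18-week replicate 3 or without 27-week replicate 3, with Dbp, a clock output factor, at 732, 540.5 and 623 against 388.4, 557.3 and 417.1. Rora and Cry1 differed by 0.30 and 0.38 and were set apart. Glucocorticoid-induced genes had a median of 0.10 over 17 members. Zbtb16, a glucocorticoid-responsive repressor, read 223.5, 185.8 and 184.4 against 131.8, 143 and 147.5, while Sgk1, a kinase induced by the same hormone, read 477.2, 557.8 and 387.4 against 1184.5, 536.5 and 473.8, with 1 high mouse of 27 weeks. Tsc22d3 differed by 0.28 and was set apart.

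Hypothalamic genes had a median of -0.10 over 12 members, or 0.06 without the low arrays. Cartpt, a feeding-related peptide precursor, read 118.4, 87.4 and 88.5 at 18 weeks and 210.4, 186.5 and 147.4 at 27 weeks, a difference of 0.85, and Gal, the galanin precursor, differed by 0.50. Pomc, the precursor of melanocortins in hypothalamus and pituitary, read 61.6, 67 and 44.4 against 30.9, 22.6 and 49.9, a difference of -0.70. The 4 measured pituitary genes had a median of -0.82, or -1.25 without the low arrays, against 1.01 in transgenic mice. Among the 6 wild-type mice, Gh and Prl were highest in 1 mouse of 18 weeks. Chgb, which encodes a protein of secretory granules, differed by 0.10. Gh and Chgb were set apart. Of 14 blood genes 3 were measured, with a median of -0.49, or -0.79 without the low arrays. Alas2, of red cell precursors, was at 97.3 in 18-week replicate 3 and at 10.9 to 26.3 in the other 5. S100a8, of neutrophils, was highest in the same mouse at 47.1, and Bpgm differed by 0.10. Olfactory bulb genes, 9 of 10 set apart, had a median of -0.27 that was -0.005 without the low arrays, with Nmb, Cdhr1 and Calb2 at -0.58, -1.18 and 0.39.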

How the data were processed

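Per the labels, total RNA (10 µg per mouse) was hybridised to Affymetrix Mouse 430 2.0 arrays. The deposited values are signal intensity on a linear scale, made by the authors with MAS5 per the submitters' processing notes, which give no version. The trimmed mean (2% off each end) was 100 on every array, array medians were 25.4 to 29.2, and no detection calls were used. Precision is limited by the number of mice, since arrays carry no depth. Of 45101 probe sets, 64 controls were left out. The annotation named 1 gene for 34945, several for 932 and none for 9160; 34741 symbols were checked by Entrez identifier. Probe sets with a mean above 16.1 (the 40th percentile) were kept, and log2(signal + 5.4) was modelled in limma 3.58.1 (R 4.3.3): 6 group means, trended moderated variances, 12 residual degrees of freedom, Benjamini-Hochberg adjustment over 27022 probe sets. For gene counts it was over these too, with the brightest probe set representing each gene. Genes described are those with the smallest p, by direction, list or difference between genotypes, as stated there. Replicates were numbered in accession order. The fit was tested on simulated data. The comparison, the gene lists and the rules were chosen with earlier results of these data known. No sequences were used.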

Additional observations from a re-analysis of the deposited data

Results flagged for a closer look

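In transgenic mice of 27 weeks, Fgf9 had a signal of 96.4 in 1 mouse and of 59.7 to 64.3 in the other 3, a gap larger than Dixon's 95% critical value for 4 samples. Chance gives such a gap in about 1 of 20 groups. The wild-type mice of the same age read 113.8 to 118.6.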

How the results depend on the processing

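The count of probe sets higher at 27 weeks, 1 as reported, was 0 with the log2 Xist signal as a covariate, with the filter at the 60th percentile, with no filter, with an offset of 20, with only the 9 wild-type arrays and without the arrays low in Gabra6. Leaving out 1 mouse at a time gave 0 to 1. The Fgf1 probe set was past the threshold in limma in 5 of 16 alternatives (adjusted p from 0.0046) and not in 11 (adjusted p up to 0.385), and past it without 27-week replicate 3 (0.0319) but not without any other of the 6 mice (up to 0.315). With only the 6 arrays an unnamed probe set passed in its place (log2 1.22, adjusted p = 0.0223), and without 18-week replicate 3 it was 1 of Gas5, a noncoding RNA gene (log2 1.07, adjusted p = 0.0325). Counts lower at 27 weeks and of differences between genotypes were 0 in every alternative run in limma, with 645 to 1594 and 741 to 2001 probe sets at an unadjusted p under 0.05. No sign of the 20 chosen genes turned in 335 pairs of gene and alternative. These genes were chosen because the mice did not overlap, so leaving out mice or changing the offset or filter could not turn a sign. Medians of 9 of the 33 lists moved by more than their spread under some alternative. That of astrocytes was 0.11 after quantile normalisation and up to 0.15 without 1 mouse of 27 weeks. With the filter at the 60th percentile that of meningeal genes was -0.09, that of hindbrain genes 0.57 and that of glutamate receptors -0.17. The sign turned for circadian genes, to 0.013 without 18-week replicate 3 and 0.0016 without 27-week replicate 3, for cytosolic ribosomal protein genes, to 0.0052 after quantile normalisation, and for oligodendrocyte precursor genes, to 0.04 without the arrays low in Gabra6. The cause of these shifts was not tested. No paired analysis was possible because the titles carry a code for each mouse and no replicate number shared between ages.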
